A study of Mus musculus with 4 samples.

Results

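The 8 genes described here code for the 3 VEGF receptors (*Flt1*, *Kdr* and *Flt4*), the 2 neuropilin coreceptors (*Nrp1* and *Nrp2*) and 3 ligands of the family (*Vegfa*, *Vegfc* and *Pgf*). They were chosen by name as members of 1 signalling family, by a rule that used no measured value although earlier results of these data were known, and all 8 were found by symbol among the 46517 gene identifiers of the count tables. VEGF-A binds VEGFR1 (*Flt1*) and VEGFR2 (*Kdr*), of which VEGFR2 carries most of the signal for permeability, migration and growth of blood vessels, while VEGFR1 binds the ligand tightly and signals weakly. Placental growth factor (*Pgf*) binds VEGFR1 alone among the 3 receptors, and VEGF-C (*Vegfc*) binds VEGFR3 (*Flt4*), the main growth receptor of lymphatic vessels. Neuropilins have little signalling activity of their own, and hold VEGF or class 3 semaphorins beside a signalling receptor.

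Dermal endothelial cells came from the ears of female adult wild-type C57Bl/6 mice, whose age the labels give as 12 to 26 weeks; the study's methods give a range that starts and ends younger. Cells were released with enzymes, sorted singly as CD31+/CD45-/Lyve1- into 4 plates of 384 wells, and sequenced by Smart-seq2, which reads whole transcripts without molecular identifiers. There was no treatment, and the 2 replicates of 2 plates each (A and B) came from pooled ears of 6 mice. The series text does not settle whether each replicate was a pool of its own. The fit takes out the overall difference between the replicates. The p-values thus measure only how far differences between classes varied between these 2 replicates, over all classes fitted, and not the spread over mice.

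The 1536 wells were assigned to classes without any of the 8 genes. A well entered the endothelial classes with a read of both *Pecam1* and *Cdh5*. Of these, 116 wells were called lymphatic from their markers (13 in replicate 1 and 103 in replicate 2), and 426 were called mural-mixed, with at least 100 CPM (a gene's reads in a well, scaled to the same total in every well) of the pericyte genes *Pdgfrb* or *Kcnj8* (401 and 25 wells). The remaining 616 blood vascular endothelial cell (BEC) wells were clustered into 117 artery-like (75 and 42), 116 capillary-like (87 and 29) and 192 vein-like wells (75 and 117), and 98 and 93 wells stayed unnamed. Values for all BECs include the unnamed wells. Of these, 83 formed a cluster with many markers of other cells higher. They were 10 of 12 mural, 7 of 8 lymphatic, 7 of 7 fibroblast, 6 of 6 keratinocyte and 5 of 5 Schwann markers. Lymphatic markers summed to 164 and 760 CPM in the unnamed wells. The part of such wells in the BEC values was not tested. Mean summed levels of the marker lists followed the class names in both replicates. The BEC clusters had been named from these same lists, so their sums describe the classes and are no check of the names. The 8 lymphatic markers, 5 of which were used to call the class, summed to 6787 and 9827 CPM in lymphatic wells, against 19.6 to 634 CPM in the BEC classes. The vein list summed to 6487 and 5233 CPM in vein-like wells and to at most 1257 CPM in the other BEC classes. The artery-like wells were less clear: 9 of 11 artery markers and also 7 of 11 capillary markers were higher there than in other BECs. Of the vein-like wells, 71 came from a cluster with only 3 vein markers higher, 12 of 75 in replicate 1 and 59 of 117 in replicate 2, and the results were also computed without it.

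Total reads on genes ranged from 31864976 to 74739095 per plate. The median well held 182926 and 142087 reads on the plates of replicate 1, and 42540 and 40324 on those of replicate 2. In replicate 1 the pericyte gene *Pdgfrb* had a read in 92.5% of BEC wells, with a mean of 21.2 CPM, against 22.1% and 3.64 CPM in replicate 2. These wells had been required to hold under 100 CPM of *Pdgfrb*, so its level is bounded by the filter. *Rgs5*, a mural gene outside the filter, was at 859 CPM with a read in 100% of BEC wells of replicate 1, and at 151 CPM and 62.6% in replicate 2. The source of these reads was not tested, no background level is set from them, and a read in most wells of replicate 1 is not taken by itself as expression below.

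Proximal promoters of the 3 genes that passed the test between lymphatic wells and BECs, and of *Kdr* beside them, are given from RefSeq (GRCm38.p6), as the 250 bases before the RefSeq transcript start, 5′ to 3′ on the gene's strand. The stretches of *Flt4* and *Nrp1* lie inside the gene spans given below. Those spans come from GENCODE, which places the first start of these genes before the RefSeq start. *Flt1* and *Nrp1* were both low in lymphatic wells, *Flt4* was high there, and the *Kdr* levels of both overlapped. Capitals mark GGAA, the core of ETS factor sites, on either strand (TTCC). ETS factors are broadly active at endothelial genes.
Flt1, chr5:147726012-147726261, minus strand: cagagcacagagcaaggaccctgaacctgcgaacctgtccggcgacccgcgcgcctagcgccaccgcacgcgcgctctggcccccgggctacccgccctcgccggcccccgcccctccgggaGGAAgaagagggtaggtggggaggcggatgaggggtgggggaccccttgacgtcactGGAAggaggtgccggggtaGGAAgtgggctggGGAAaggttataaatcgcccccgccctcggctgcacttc
Kdr, chr5:75978456-75978705, minus strand: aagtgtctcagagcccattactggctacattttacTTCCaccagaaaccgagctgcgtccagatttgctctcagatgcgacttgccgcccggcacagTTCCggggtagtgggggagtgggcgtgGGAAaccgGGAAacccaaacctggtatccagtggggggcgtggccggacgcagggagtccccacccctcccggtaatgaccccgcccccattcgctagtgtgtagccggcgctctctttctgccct
Flt4, chr11:49609429-49609678, plus strand: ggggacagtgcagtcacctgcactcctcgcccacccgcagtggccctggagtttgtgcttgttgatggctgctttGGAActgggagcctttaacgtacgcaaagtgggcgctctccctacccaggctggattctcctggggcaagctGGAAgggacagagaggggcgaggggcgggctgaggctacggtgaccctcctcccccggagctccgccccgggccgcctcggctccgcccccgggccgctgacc
Nrp1, chr8:128358823-128359072, plus strand: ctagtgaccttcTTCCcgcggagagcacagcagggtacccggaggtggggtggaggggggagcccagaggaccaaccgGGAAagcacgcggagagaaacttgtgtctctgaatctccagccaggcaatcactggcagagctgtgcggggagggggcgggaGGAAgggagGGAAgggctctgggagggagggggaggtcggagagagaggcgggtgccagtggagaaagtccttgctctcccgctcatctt
The core occurred 4 times each before the RefSeq starts of *Flt1*, *Kdr* and *Nrp1* and 2 times before that of *Flt4*. At least 1 copy was found in 93.4% of the 32851 mouse promoters of this length, with a median of 3, so its presence does not set these genes apart. The GC box GGGCGG (or CCGCCC on the other strand), bound by Sp1-type factors, occurred 3 times for *Flt1*, 2 times for *Kdr*, 3 times for *Flt4* and once for *Nrp1*, and in 32.7% of all promoters. These matches describe the letters only.

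*Flt1* (ENSMUSG00000029648, chromosome 5, 147561604 to 147726011, minus strand, mm10; 30 exons in its longest coding transcript) was high in all BEC classes and nearly absent from lymphatic wells. In artery-like wells the means of the 2 replicates were 931 and 793 CPM. They were 889 and 375 CPM for capillary-like wells, and 479 and 853 CPM for vein-like wells. The order of the 3 classes differed between replicates, with vein-like wells lowest in replicate 1 and highest in replicate 2. The same held without the weakly marked vein-like cluster, where they were at 429.8 and 964 CPM. By plate, the whole BEC population held 703 and 742 CPM in replicate 1 and 750 and 616 CPM in replicate 2. Lymphatic wells held 19.4 and 22.3 CPM on the plates of replicate 1 and 44.8 and 29.6 CPM on those of replicate 2. Every plate of lymphatic wells thus lay far below every plate of BECs.

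**Figure D1:**
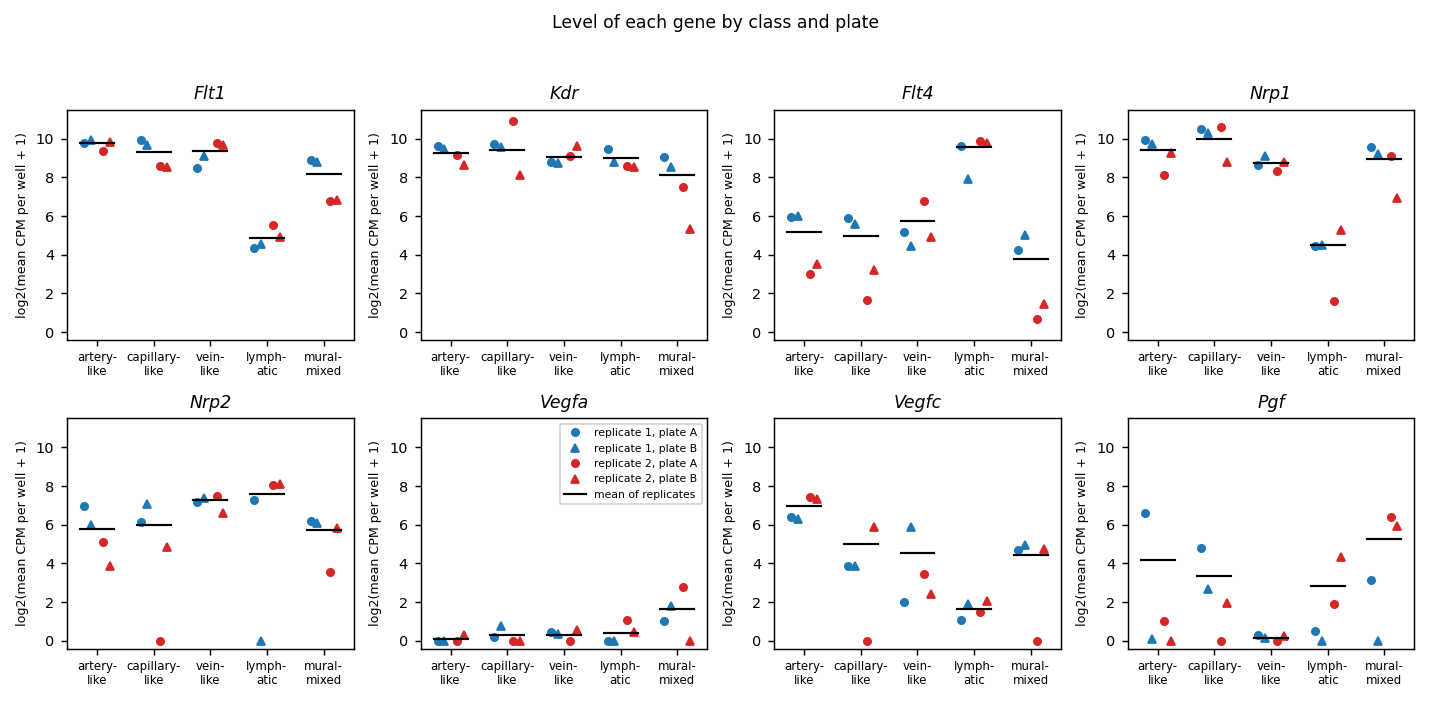
Level of each gene by class and plate. The y axis is log2 of the mean CPM per well plus 1, circles are plates A and triangles plates B, blue is replicate 1, red is replicate 2, and the black line is the mean of the 2 replicates. *Flt1* and *Nrp1* lie at 44.8 CPM or lower in lymphatic wells on all plates, while *Flt4* lies at 244 CPM or higher there and *Vegfa* at 5.79 CPM or lower in every class.

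The fall of *Flt1* in lymphatic wells against the mean of the 3 BEC classes was 4.81 on the log2 scale, a fitted log2 fold change of -4.81 ± 0.65 (SE, n = 2 replicates; edgeR quasi-likelihood test, adjusted p = 0.0029). Replicates 1 and 2 alone gave log2 fold changes of -5.26 and -4.44. Artery-like against vein-like wells differed by 0.38 ± 0.59 (SE, adjusted p = 1), with opposite signs in the replicates, 1.14 and -0.16. Against the mean of artery- and vein-like wells, capillary-like wells differed by -0.04 ± 0.51 (adjusted p = 1). The position of *Flt1* along the arteriovenous axis was therefore not resolved with these 2 replicates.

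*Kdr* (ENSMUSG00000062960, chromosome 5, 75932827 to 75978458, minus strand; 30 exons) was the receptor shared by blood and lymphatic endothelium. Its mean level was 739 and 476 CPM in artery-like, 794 and 566 CPM in capillary-like, 429 and 641 CPM in vein-like and 633 and 377 CPM in lymphatic wells. The plates of all BECs held 679 and 605 CPM in replicate 1 and 527 and 491 CPM in replicate 2, against 716, 447, 386 and 371 CPM in lymphatic wells. Lymphatic plates overlapped BEC plates, and the log2 difference was -0.18 ± 0.38 (SE, adjusted p = 0.941). The capillary-like class was higher than the mean of the other 2 BEC classes in both replicates, by 0.70 and 0.83 on the log2 scale of the summed, TMM-scaled counts, which did not pass the test (0.74 ± 0.39, SE, adjusted p = 0.896). In mean CPM per well, however, the capillary-like class of replicate 2 was below the vein-like class (566 against 641 CPM), though not without the weakly marked vein-like cluster (499 CPM). On plate A of replicate 2 the capillary-like class had only 5 wells, with 1937 CPM against 280 CPM on plate B. Artery-like and vein-like wells differed by 0.26 ± 0.46 (SE, adjusted p = 1).

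Because *Kdr* is often used to select endothelial wells, its share of wells was read only where it was no criterion. Of the wells that passed the depth limits, 758 in replicate 1 and 431 in replicate 2 had reads of *Pecam1* and *Cdh5*, and 96.8% and 70.1% of them also had a *Kdr* read. Accepting any 2 of *Pecam1*, *Cdh5* and *Kdr* added 7 wells in replicate 1 and 151 in replicate 2, every one of which had a *Kdr* read by construction. The added wells of replicate 2 were shallow, with a median of 17729 reads, and held a mean of 410 CPM of *Kdr*. The share with a *Kdr* read was then 77.8% in replicate 2, and in its lymphatic wells it went from 69.9% of 103 to 80.7% of 161. The mean level in those lymphatic wells moved little, from 377 to 405 CPM. The BEC wells were clustered anew under this filter, so that the classes differ by more than the added wells (capillary-like wells of replicate 1 went from 87 to 128, artery-like from 75 to 32), and their *Kdr* levels are not set side by side.

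*Flt4* (ENSMUSG00000020357, chromosome 11, 49609263 to 49652739, plus strand; 30 exons) was the reverse of *Flt1*. Lymphatic wells held 799 and 244 CPM on plates A and B of replicate 1, where plate B had 4 such wells, and 939 and 877 CPM in replicate 2. All BECs held 38.1 and 49.1 CPM in replicate 1 and 73.8 and 33.4 CPM in replicate 2. The groups did not overlap. The log2 fold change was 5.46 ± 1.02 (SE, edgeR, adjusted p = 0.0189), with 3.88 and 6.85 in replicates 1 and 2. *Flt4* was not used to call lymphatic wells, and the result describes cells that had passed a sort against surface Lyve1.

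Within BECs, *Flt4* was carried by few wells. The median BEC well had no *Flt4* read in either replicate, and 34.6% and 29.9% of BEC wells had one. Mean levels were 62.0 and 8.85 CPM in artery-like, 52.3 and 7.32 CPM in capillary-like and 26.7 and 79.6 CPM in vein-like wells. Artery-like wells were above vein-like wells in replicate 1 and far below them in replicate 2, with log2 differences of 2.02 and -3.89, and the fitted value was -1.43 ± 1.49 (SE, adjusted p = 1). In the vein-like wells of replicate 2, plate A held 110 CPM and plate B 29.0 CPM.

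Shares of wells were compared at equal depth, with each well thinned to 20000 reads. Wells with fewer reads were left out, in replicate 2 28 of 103 lymphatic, 9 of 29 capillary-like, 3 of 117 vein-like and 5 of 25 mural-mixed wells, and in replicate 1 7 of 401 mural-mixed wells. *Flt4* had a read in 10 of 13 (76.9%) lymphatic wells of replicate 1 and 69 of 75 (92.0%) of replicate 2. The exact 95% binomial intervals, which cover counting error only, were 46.2 to 95% and 83.4 to 97.0%. Without thinning and over all wells, the shares were 12 of 13 (92.3%) and 80 of 103 (77.7%). In the BEC classes the thinned share was 5 to 25.3%. *Flt1* had a read in 46.2% and 18.7% of thinned lymphatic wells and in 73.8 to 93.3% of thinned wells of the BEC classes. Without thinning, *Flt1* had a read in 13 of 13 lymphatic wells of replicate 1 at a mean of only 20.3 CPM, a share not taken by itself as expression. Thinned shares of *Kdr* were 92.3% and 68.0% in lymphatic wells and 50.0 to 86.7% in the BEC classes, which overlapped.

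**Figure D2:**
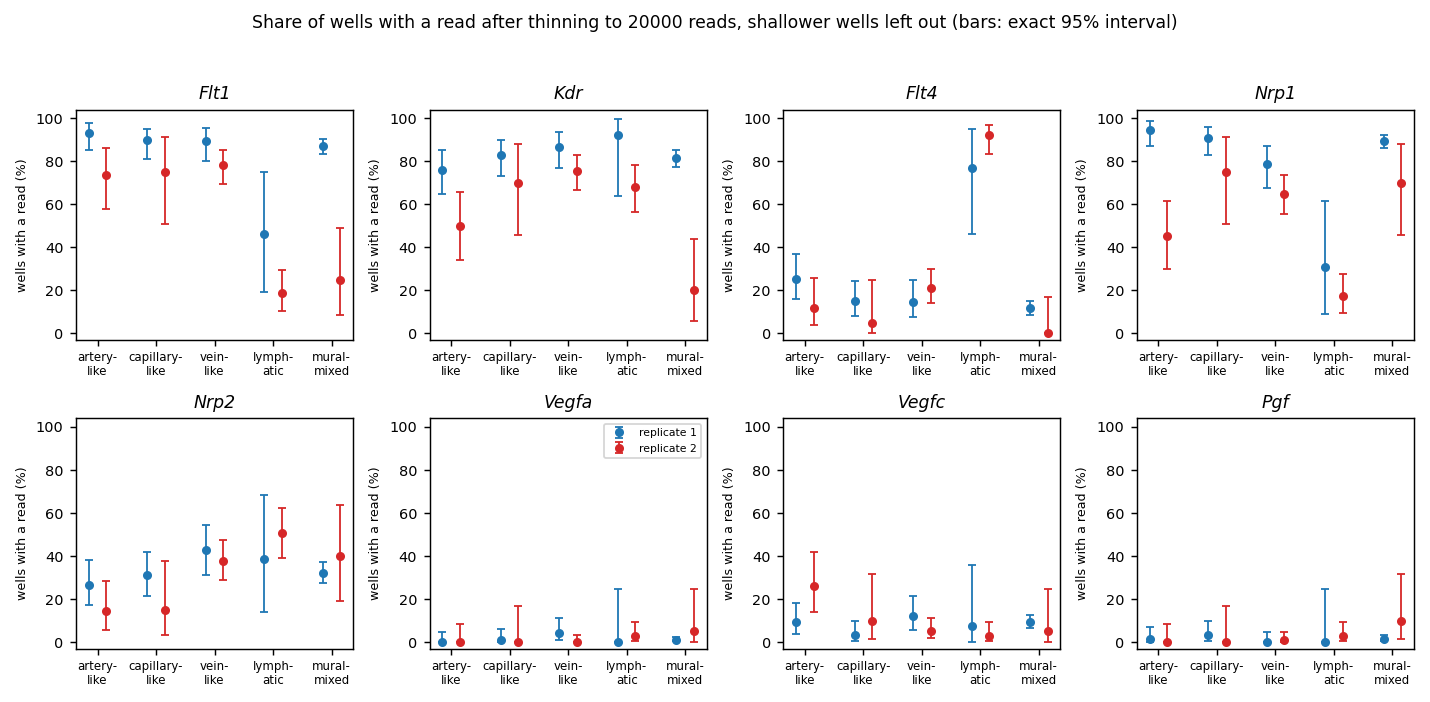
Share of wells with at least 1 read of each gene after thinning to 20000 reads, by class, in percent, with shallower wells left out. Blue is replicate 1, red is replicate 2, and bars are exact 95% binomial intervals over wells, which cover counting error only. *Flt4* has a read in 76.9% and 92.0% of lymphatic wells and in at most 25.3% of wells in any BEC class, and the 3 ligands in at most 26.2% of wells in every class.

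*Nrp1* (ENSMUSG00000025810, chromosome 8, 128358604 to 128503363, plus strand; 17 exons in its longest coding transcript), the neuropilin that binds VEGF-A and associates with VEGFR2, followed *Flt1* in lymphatic wells. It stood at 20.5 and 21.5 CPM on the lymphatic plates of replicate 1 and at 1.99 and 37.3 CPM on those of replicate 2. All BECs held 859 and 749 CPM in replicate 1 and 311 and 437 CPM in replicate 2, so that every BEC plate was above every lymphatic plate. The log2 fold change was -5.86 ± 0.50 (SE, edgeR, adjusted p = 0.000151), with -5.40 and -6.33 in the replicates. Of the 7 genes of the family with enough reads to test, 3 passed in this comparison, *Flt4* as higher and *Flt1* and *Nrp1* as lower. The 7 fibroblast markers summed to 307 and 1236 CPM in lymphatic wells, against 114 to 638 CPM in the BEC classes of replicate 1 and 122 to 361 CPM in those of replicate 2, and their part in these differences was not tested. With a limit of 10 CPM in place of 100 CPM on the genes of other cells, which left no lymphatic wells of replicate 1 to compare, *Flt1* and *Nrp1* no longer passed (-1.35 and -0.83) and *Flt4* did. Among all 17440 genes tested, 2.16% passed, 1.22% as higher and 0.94% as lower in lymphatic wells.

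Within BECs, the mean *Nrp1* level of capillary-like wells was 1352 CPM in replicate 1 and 636 CPM in replicate 2. It was 891 and 454 CPM in artery-like wells and 485 and 365 CPM in vein-like wells. Capillary-like wells were highest on both plates of replicate 1. In replicate 2 their rank rested on the 5 wells of plate A, at 1539 CPM, since on plate B they stood at 448 CPM (24 wells) against 601 CPM in artery-like and 449 CPM in vein-like wells. The replicate 2 medians per well were 64.8 CPM in capillary-like, 26.1 CPM in artery-like and 112 CPM in vein-like wells, and 3 wells held 71.9% of the capillary-like level. The log2 difference of capillary-like wells from the mean of the other 2 was 1.11 ± 0.35 (SE, edgeR, unadjusted p = 0.00948, adjusted p = 0.896), with 1.33 and 0.94 in the replicates. It did not pass. Artery-like wells were above vein-like wells by 0.71 ± 0.42 (SE, adjusted p = 1).

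*Nrp2* (ENSMUSG00000025969, chromosome 1, 62703285 to 62818695, plus strand; 16 exons), the neuropilin that binds VEGF-C and semaphorin 3F, was highest among BECs in vein-like wells. Levels there were 158 and 148 CPM, against 83.8 and 22.7 CPM in artery-like and 102 and 23.4 CPM in capillary-like wells. The vein-like class was the higher in both replicates, but artery-like against vein-like wells gave -1.58 ± 0.98 (SE, adjusted p = 1). Lymphatic wells held 107 and 270 CPM. In the 13 lymphatic wells of replicate 1 the level rested on few wells, since 3 wells held 97.7% of it and the 4 wells of plate B had none. The lymphatic difference, 1.57 ± 0.78 (SE, adjusted p = 0.472), had opposite signs in the replicates, -0.26 and 2.71. In thinned wells of replicate 2, *Nrp2* had a read in 37 of 69 lymphatic wells with *Flt4* and in 1 of 6 without it, and in replicate 1 in 4 of 10 and 1 of 3. In thinned BEC wells with *Flt4* it had a read in 13 of 56 (23.2%) in replicate 1 and 16 of 41 (39.0%) in replicate 2, against 32.0% and 24.9% of BEC wells without *Flt4*.

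**Figure D3:**
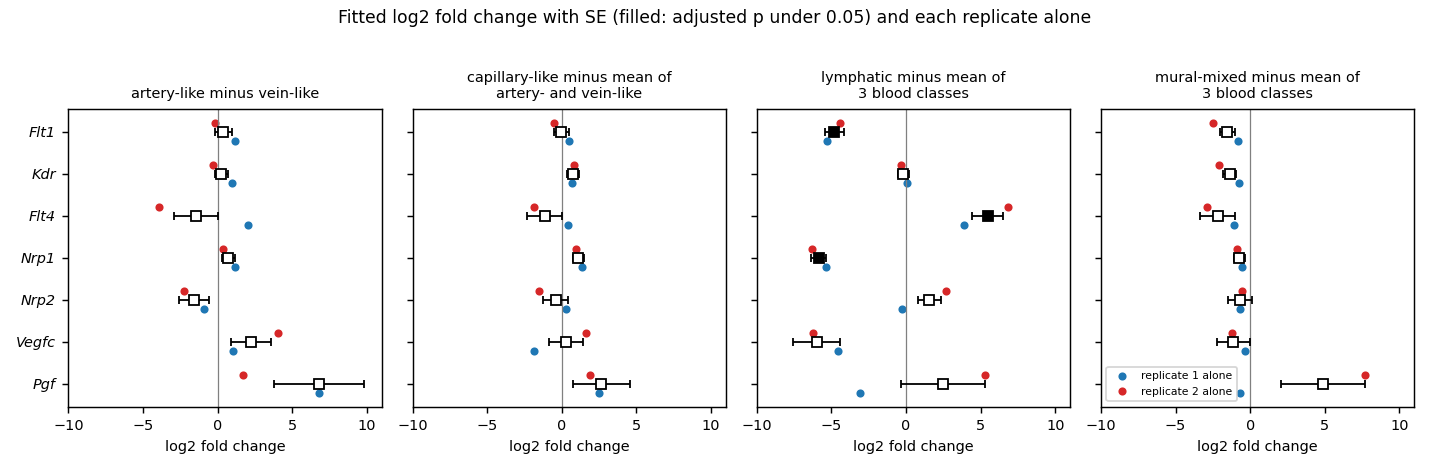
Log2 fold changes of the 7 testable genes in the 4 comparisons. Squares with bars are fitted values with their SE, filled where the adjusted p is under 0.05; blue and red points are replicates 1 and 2 alone. Only *Flt1*, *Flt4* and *Nrp1* in the lymphatic comparison are filled, at -4.81, 5.46 and -5.86.

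Ligand reads were sparse. *Vegfa* (ENSMUSG00000023951, chromosome 17, 46016993 to 46032369, minus strand; 7 exons) had a mean of at most 2.55 CPM in the artery-like, capillary-like, vein-like, lymphatic and mural-mixed wells of either replicate, and 0.23 and 2.71 CPM in the unnamed BEC wells. No *Vegfa* read was found in the 75 artery-like wells of replicate 1, which puts the limit for wells with a read, not for cells that express the gene, at 4% (3 of 75), and 1 of 42 had one in replicate 2. In mural-mixed wells it had a read in 17 of 401 and 2 of 25. It did not reach the count minimum for a test. These wells hold sorted cells, so the levels say nothing of *Vegfa* in the keratinocytes and other cells of the ear.

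*Vegfc* (ENSMUSG00000031520, chromosome 8, 54077606 to 54187096, plus strand; 7 exons) was highest in artery-like wells of both replicates. The plates held 83.9 and 77.8 CPM in replicate 1 and 169 and 160 CPM in replicate 2. Vein-like plates held 3.01 and 59.1 CPM in replicate 1 and 9.92 and 4.36 CPM in replicate 2, so that all 4 artery-like plates were above all 4 vein-like plates. Few wells carried the signal: a read was found in 10 of 75 and 14 of 42 artery-like wells, and 3 wells held 83.3% and 66.8% of the level. The difference from vein-like wells was 2.26 ± 1.35 on the log2 scale (SE, adjusted p = 1), with 1.05 and 4.07 in the replicates. Capillary-like wells held 13.5 and 48.4 CPM, of which 1 well made up 99.7% in replicate 2. Lymphatic wells held 1.60 and 2.58 CPM from 2 and 6 reads in all, and the lymphatic difference of -5.99 ± 1.56 (SE, adjusted p = 0.0876) did not pass. DESeq2 called *Vegfc* as a further gene there, with an adjusted p of 2.38e-05, as did edgeR without the filter on low counts.

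*Pgf* (ENSMUSG00000004791, chromosome 12, 85166635 to 85177790, minus strand; 7 exons) was read in few wells, 22 of 401 in mural-mixed wells of replicate 1 and at most 4 in any other of the 5 classes and replicates. Artery-like wells held 34.0 CPM in replicate 1, of which 1 well with 2546 CPM made up 99.9%, and 0.47 CPM in replicate 2. Capillary-like wells held 16.1 and 2.36 CPM and vein-like wells 0.15 and 0.07 CPM. The fitted log2 difference between artery-like and vein-like wells, 6.78 ± 3.03 (SE, edgeR, unadjusted p = 0.0465, adjusted p = 1), rests on that well. The highest mean level was 70.7 CPM in the 25 mural-mixed wells of replicate 2, where 2 wells had a read, against 4.08 CPM in the 401 mural-mixed wells of replicate 1.

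No gene of the family passed the test along the arteriovenous axis. Artery-like against vein-like wells called 0 of the 7 by edgeR, in a comparison that called 0% of all genes; at unadjusted p under 0.05 it called 1 (*Pgf*) of 7, against 3.18% of all genes. DESeq2 called 95 of the 17440 genes and none of the 7. Capillary-like wells against the mean of the other 2 classes likewise called 0 of the 7 and 0% of all genes by edgeR; at unadjusted p under 0.05 it called 1 (*Nrp1*), against 4.48%. DESeq2 called 182 genes there and none of the 7. The number of calls over all genes is itself 0, so these counts do not show that the 8 genes are alike across BEC classes.

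Mural-mixed wells held less of *Flt1* than any BEC class in both replicates, at 461 and 111 CPM. In replicate 1 the vein-like class was close, at 479 CPM, and fell below them without its weakly marked cluster, at 429.8 CPM. On plate A of replicate 1 mural-mixed wells were above vein-like wells (475 against 359 CPM), and on plate B below them (447 against 558 CPM). *Kdr* was at 450 and 103 CPM and *Nrp1* at 668 and 306 CPM, both of them below the artery- and capillary-like classes in each replicate but above the vein-like class in replicate 1. Log2 differences from the mean of the BEC classes were -1.53 ± 0.53 (SE) for *Flt1*, -1.38 ± 0.41 for *Kdr* and -0.73 ± 0.36 for *Nrp1*. With adjusted p of 0.322, 0.198 and 0.754, respectively, by edgeR, 0 of 7 passed, where 0.562% of all genes did. At unadjusted p under 0.05 it called 2, *Flt1* and *Kdr*, against 7.71% of all genes. DESeq2 called 695 genes and 1 of the 7, *Pgf*, at 5.17 with an adjusted p of 0.0413, which rests on the 2 wells above. *Pecam1*, the gate gene, moved with the receptors: it was 2032 and 876 CPM in mural-mixed wells against 1577 to 3180 CPM in the BEC classes, and the 12 mural markers summed to 9890 and 8727 CPM against 339 to 1782 CPM. The 7 fibroblast markers summed to 1768 and 2337 CPM against 114 to 638 CPM. The part of these values in the receptor levels was not tested, and fewer endothelial transcripts per well and less receptor RNA per endothelial cell cannot be told apart here.

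The genes were also read in mural-marked wells with little *Pecam1*. These were wells with at least 300 CPM of *Pdgfrb* or *Kcnj8* and under 100 CPM of *Pecam1*, a definition made after the data had been seen, with 8 wells in replicate 1 and 38 in replicate 2. All of those in replicate 1 and 23.7% of those in replicate 2 had reads of both *Pecam1* and *Cdh5*. The rest lacked a *Cdh5* read and were among the 325 wells described under other observations. The group thus overlaps the mural-mixed class and is not independent of it. In replicate 2, *Flt1*, *Kdr* and *Flt4* were at 2.43, 3.86 and 1.63 CPM there, while *Nrp1* was at 327 CPM and had a read in 23 of 38 thinned wells. *Nrp1* was at 405 CPM in replicate 1 as well. The 7 fibroblast markers summed to 3063 and 4911 CPM in these wells, against 114 to 638 CPM in the BEC classes, and the 12 mural markers to 21679 and 16610 CPM; the part of either cell type in the *Nrp1* level was not tested. *Nrp2* differed between replicates, at 1.67 and 80.7 CPM. *Flt1* did too, with 360 CPM in replicate 1, where *Kdr* was at 29.3 CPM and *Flt4* at 0.46 CPM, although *Flt1* and *Kdr* were at 724 and 639 CPM in BECs of that replicate. Other endothelial genes also differed in these wells: *Pecam1* was at 72.0 CPM against 26.3 CPM in replicate 2, *Cdh5* at 90.7 against 11.02 CPM, and the 11 capillary markers summed to 4826 against 761 CPM. Their part in the *Flt1* level was not tested.

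Levels can be set between genes only per length. Per kb of exon union and over all BEC wells, *Kdr* stood at 63.6 ± 10.2 CPM per kb (SD, n = 2), *Nrp1* at 60.1 ± 30.6 and *Flt1* at 52.0 ± 2.30, whose SDs overlapped. *Vegfc* followed at 14.4 ± 1.42, *Nrp2* at 9.11 ± 0.0016, *Flt4* at 5.88 ± 0.75, *Pgf* at 2.43 ± 2.93 and *Vegfa* at 0.14 ± 0.12 CPM per kb. In lymphatic wells the order was *Flt4* at 93.0 ± 23.6 CPM per kb, *Kdr* at 55.9 ± 20.0 and *Nrp2* at 15.9 ± 9.75, with *Nrp1* at 2.22 ± 0.13 and *Flt1* at 2.08 ± 0.82. Of the ligands there, *Pgf* stood at 2.14 ± 2.87, *Vegfc* at 0.85 ± 0.28 and *Vegfa* at 0.079 ± 0.11 CPM per kb. *Flt4* was above *Kdr* per kb of exon union in both replicates, 76.3 against 70.1 and 110 against 41.8, but per kb of the longest coding transcript it was below *Kdr* in replicate 1 (100.4 against 107) and above it in replicate 2 (144 against 63.7). With the longest coding transcript in place of the exon union, *Nrp1* led in BECs at 163 ± 83.2 CPM per kb, ahead of *Flt1* at 102 ± 4.51 and *Kdr* at 96.9 ± 15.6, since the *Nrp1* transcript is much shorter than its exon union, and *Nrp2* at 16.1 stood above *Vegfc* at 14.4.

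**Figure D4:**
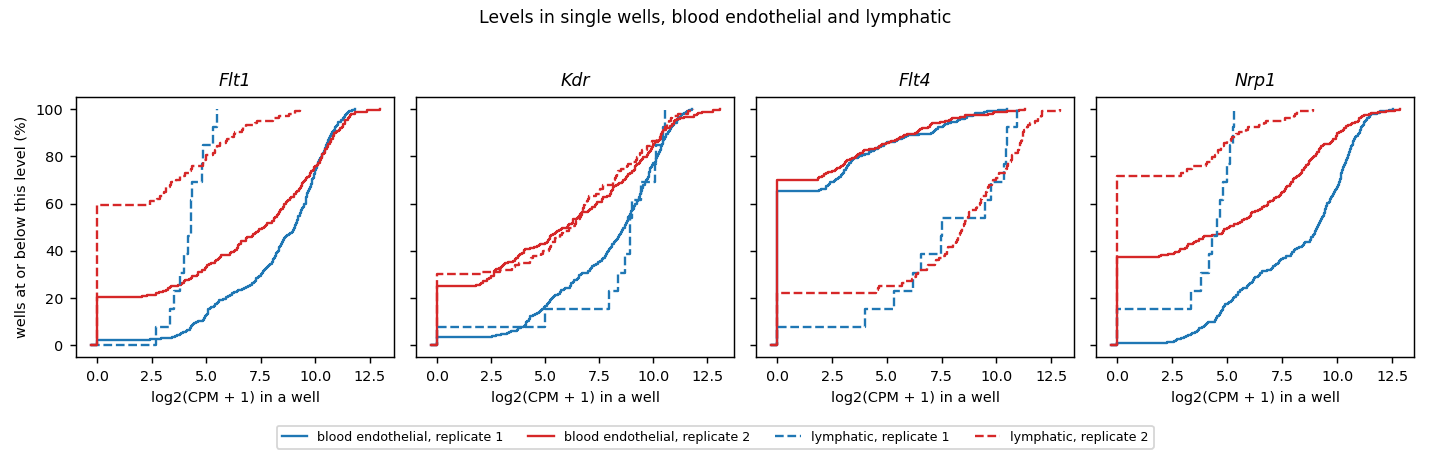
Share of wells at or below each level of 4 genes, in percent, against log2(CPM + 1) in a single well. Solid lines are all BEC wells, dashed lines lymphatic wells, blue replicate 1 and red replicate 2. The dashed *Flt1* and *Nrp1* lines lie far to the left of the solid ones, the dashed *Flt4* lines lie to the right, and the *Kdr* lines of each replicate lie close together.

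Pairs of receptors were also read in the same wells. In thinned BEC wells with *Kdr*, *Flt1* had a read in 87.0% of replicate 1 and 75.2% of replicate 2, against 84.2% and 62.9% of wells without *Kdr*. *Nrp1* had a read in 81.9% and 61.4% of wells with *Kdr*, against 86.0% and 45.4% without. *Nrp2* had a read in 32.5% and 28.8% of wells with *Kdr*, against 21.1% and 24.7% without. Wells of 1 replicate share their mice and differ in class, so these shares are given as a description. In thinned lymphatic wells of replicate 2, 48 of 51 wells with *Kdr* also had *Flt4*, as did 21 of 24 wells without *Kdr*.

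The wider pathway was described by 95 genes around the receptors, of which 94 could be tested. In lymphatic wells 2 were higher and 4 lower, with a median log2 difference of -0.01, against -0.09 over all genes tested. Over all genes 1.22% were higher and 0.94% lower, or 2.16% in all, against which the counts of this list and of its groups are to be read. DESeq2 called 20 of the 94, 7 higher and 13 lower, with a median of 0.16. *Sema3a*, a semaphorin ligand of *Nrp1*, was higher by 6.64 ± 1.02 (SE, edgeR, adjusted p = 0.00651). *Aplnr*, the apelin receptor, was lower (-6.03 ± 0.73, adjusted p = 0.00132), as was its ligand *Apln* (-6.16 ± 1.08, adjusted p = 0.0141). Both are known to respond to VEGF in blood vessels and stood in a group of 16 target genes, of which these 2 passed. *Ptprb*, the vascular endothelial phosphatase that dampens VEGFR2 and Tie2, was lower by -3.18 ± 0.32 (adjusted p = 0.000416). Outside the naming rule, and named after their values were seen, *Cd63*, a tetraspanin, was higher (3.11 ± 0.63, adjusted p = 0.0275) and *Hspb1*, a small heat shock protein, was lower (-1.96 ± 0.39, adjusted p = 0.0268). By group, 3 of 16 receptor partners and phosphatases, 2 of 16 target genes and 1 of 49 genes of the signal relay passed, and none of the 11 genes of endocytosis and turnover or of the 2 further ligands, *Vegfb* and *Vegfd*. Along the arteriovenous axis and in mural-mixed wells, 0 of the 94 passed by edgeR, with 6, 5 and 13 at unadjusted p under 0.05 in the order artery-like, capillary-like and mural-mixed, where 3.18%, 4.48% and 7.71% of all genes were. DESeq2 called 1, 2 and 2 of the 94, and 95, 182 and 695 of the 17440 genes.

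The genes with the pattern most like each member were found by Pearson's r across the 10 class sums after centring within replicate, among 17319 other genes. For *Nrp1* they were *Nxpe4* (r = 0.99), *Tmem255b* and *Rnf144a*, and for *Flt1* *Fam198b* (r = 0.99), *Palmd* and *Pcdh1*. For *Flt4* they were *Mtmr9* (r = 0.98), *Flnc* and *D5Ertd615e*, and for *Kdr* *Hmg20b* (r = 0.95), *Gm44231* and *Cdkn1c*. For *Nrp2* they were *1500035N22Rik* (r = 0.96), *Zbtb12* and *B3galt2*, for *Vegfc* *Gm16541* (r = 0.96), *Bsg* and *Myo1h*, and for *Pgf* *Gm44193* (r = 0.97), *Cd44* and *Gm14965*. Within the family, *Flt1* and *Nrp1* had r = 0.93 and *Flt4* and *Nrp2* r = 0.79, and *Flt4* and *Nrp1* had r = -0.81. The sparsely read *Vegfc* had r = 0.84 with *Nrp1*, 0.78 with *Flt1*, -0.84 with *Flt4* and -0.76 with *Nrp2*. The 10 points share 2 replicates and their pools.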

How the data were processed

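Single cells were sequenced by Smart-seq2 as single 50-bp reads. The submitters' processing notes name TopHat2 2.1.1, SAMtools 0.1.18 and Subread 1.4.6-p5 with mm10, and what the authors deposited are raw read counts, a row for each gene and a column for each well. Because the authors removed duplicated reads, counts of highly expressed short genes are limited. Subread's strand setting is not given in the sources used here. Symbols came from GENCODE vM21 for 46005 of 46517 identifiers, and the 92 spike-in rows stayed out of library sizes. The release used by the authors is not given in the sources used here. Only the microRNA gene *Mir1903* shares exonic bases with a member (*Nrp1*).

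Wells needed at least 600 reads, 500 to 8000 genes and a read of *Pecam1* and *Cdh5*; 15 wells failed the depth limits, 332 lacked a *Pecam1* or *Cdh5* read and 31 met the rules of no class. Lymphatic wells had at least 2 of *Prox1*, *Lyve1*, *Mmrn1*, *Reln* and *Ccl21a* at 100 CPM. BEC wells had *Lyve1*, *Prox1*, *Ptprc*, *Pdgfrb* and *Kcnj8* below 100 CPM. They were clustered with scran 1.30.0 and leidenalg 0.10.2 on 1000 variable genes without the members or their pathway, at resolution 0.8, and named from markers (at least 3 markers 1.25 times higher). The mural-marked wells with little *Pecam1* and the fit without the weakly marked vein-like cluster were chosen after seeing the data. Doublets were not called beyond the limit of 8000 genes. No well name was shared between plates.

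Counts were summed per class and replicate (10 sums of at least 5 wells). A gene was tested if 2 sums or more held 10 counts of it, in edgeR 4.0.16 (TMM, quasi-likelihood, replicate as block, 4 residual degrees of freedom, Benjamini-Hochberg over all genes, threshold 0.05), which had been tested on simulated data. The fold change of single replicates used log2 CPM with a prior count of 2. The SE printed with an edgeR log2 fold change is its size divided by the square root of the quasi-likelihood F. It comes from the fit over all 10 sums and is not an SE over the replicates of 1 class. The block rests on the mice, which all classes of 1 replicate share; deviations from class means correlated at -0.03 to 0.14 over the 10 pairs of classes. DESeq2 1.42.0 and limma 3.58.1 were alternatives. Levels are mean CPM over wells, thinning drew 20000 reads without replacement from wells with at least that many, and 95% intervals are Clopper-Pearson. The named genes were the 8 members, at most 4 pathway genes per comparison, and the 3 genes most like each member. The pathway genes had to pass the threshold in the joint fit, with the same direction in both replicates. The members and lists were chosen with earlier results of these data known.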

Additional observations from a re-analysis of the deposited data

Results flagged for a closer look

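Of the 40 combinations of gene and class, 6 had 1 plate of the 4 that stood apart by Dixon's ratio. Chance marks about 1 in 20 sets of independent, normally distributed values, a rate that does not hold here, since plates are nested in replicates and a single read sets the ratio where the other plates are at or near 0. *Pgf* in artery-like wells was 97.9 CPM on plate A of replicate 1 and at most 1.04 CPM on the others. In lymphatic wells it was 18.8 CPM on plate B of replicate 2 and at most 2.74 CPM on the others. *Vegfc* in vein-like wells was 59.1 CPM on plate B of replicate 1 against 3.01 to 9.92 CPM, and in mural-mixed wells it was 0 CPM on plate A of replicate 2 (11 wells) against 25.2 to 29.5 CPM. *Flt4* in vein-like wells was 110 CPM on plate A of replicate 2 against 20.7 to 35.7 CPM. *Vegfa* in artery-like wells was 0.23 CPM on plate B of replicate 2, from 1 well, and 0 on the others.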

How the results depend on the processing

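The 3 calls in the lymphatic comparison were made in 14 (*Flt1*, *Nrp1*) and 15 (*Flt4*) of 15 alternatives. With a 10 CPM limit only 1 of the 3 was left (*Flt4*). *Flt1* was then at -1.35 and *Nrp1* at -0.83. That limit left no lymphatic or artery-like sum in replicate 1 and widened the lymphatic class of replicate 2 to 153 wells, and its rule for all classes was not met at any resolution. Plate B only likewise left no lymphatic sum of replicate 1, so its lymphatic values rest on replicate 2. The classes from marker scores and the next resolution kept the same 13 and 103 lymphatic wells, and so did not vary that class. In mural-mixed wells, DESeq2 and the fit without a low-count filter each called 1 member (*Pgf* and *Flt1*) against 0 as reported. Without the replicate block 0, 0, 3 and 0 members passed in the 4 comparisons, as with it, while 459 genes in all passed for lymphatic and 188 for mural-mixed wells. Under the 10 CPM limit 13 of 40 gene and class levels reached 10 CPM in both replicates, against 25, but artery-like and lymphatic wells of replicate 1 were then too few to count, so that this says little of how levels depend on the limit. Calls over all genes ranged from 0 to 95 (0 as reported) for artery-like against vein-like wells, 0 to 182 (0) for capillary-like, 55 to 1571 (377) for lymphatic and 50 to 695 (98) for mural-mixed wells, highest with DESeq2. DESeq2's size factors shifted the median log2 fold change of all genes by 0.11 for capillary-like and lymphatic wells. No test is possible with 1 replicate left out, and the signs of the 3 lymphatic calls held in each replicate.

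Signs of uncalled differences turned as follows, the cause not being tested. Artery-like against vein-like: *Kdr* -0.088 (marker scores), -0.88 (next resolution) and -0.17 (plate B); *Flt4* 0.33 (scores), 1.46 (10 CPM) and 0.0039 (no replicate block); *Nrp1* -0.044 (scores); *Pgf* -10.25 (*Kdr* filter), -2.59 (scores), -4.67 (next resolution) and -0.44 (plate B). Capillary-like: *Flt1* 0.099 (DESeq2, and its size factors), 0.37 (*Kdr* filter), 0.25 (scores), 0.83 (10 CPM), 0.41 (300 CPM) and 0.30 (next resolution); *Flt4* 1.48 (scores); *Nrp2* 1.74 (next resolution) and 0.26 (plate B); *Vegfc* -4.34 (*Kdr* filter), -3.66 (scores), -1.65 (300 CPM), -0.78 (limma), -3.54 (next resolution), -2.31 (plate A), -0.070 (plate B) and -0.73 (sums per plate). Lymphatic: *Kdr* 0.057 (scores), 0.13 (10 CPM), 0.15 (next resolution) and 0.13 (plate B). Mural-mixed: *Flt4* 0.34 (10 CPM), *Nrp1* 0.012 (plate A), *Nrp2* 0.85 (10 CPM) and *Vegfc* 0.053 (*Kdr* filter), 0.13 (scores), 0.89 (10 CPM) and 0.54 (300 CPM). Leaving out the weakly marked vein-like cluster, an alternative chosen after seeing the data, changed no call of a member. The 13 lymphatic wells of replicate 1 and the sparse ligand reads limit what could be detected.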

Other observations

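In 325 wells of replicate 2 a read of *Pecam1* or *Cdh5* was missing, and these wells entered no comparison of the main fit. The alternative with *Kdr* in the well filter admitted 151 of them. The median depth of all 325 was 13340 reads. All 8 genes were read there: *Kdr* was at 192 CPM with a read in 46.8% of wells, *Flt1* at 142 CPM (43.4%), *Flt4* at 141 CPM (28.3%), *Nrp1* at 106 CPM (36.0%) and *Nrp2* at 99.0 CPM (24.9%). *Flt4* was higher there than the 52.8 CPM of all BECs in the same replicate, while *Flt1* and *Nrp1* were below their BEC levels of 680 and 377 CPM. The 8 lymphatic markers summed to 2244 CPM in these wells against 350 CPM in BECs (*Mmrn1* 857, *Lyve1* 339 and *Prox1* 65.9 CPM), and the 12 mural markers to 2660 against 538 CPM. Their part in these levels was not tested.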
